A study of Arabidopsis thaliana with 9 samples.

Results

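The genes described here are 10 genes of the unfolded protein response of the endoplasmic reticulum (ER): BIP1, BIP2, BIP3, ERDJ3A, SDF2, CNX1, bZIP60, bZIP28, IRE1A and IRE1B. They were chosen by their gene identifiers, with earlier results of these data known, and all 10 were found among the 33602 genes of the read count table. RNA was sequenced from leaves of wild-type Arabidopsis thaliana (Col-0), with 3 libraries per treatment that the study describes as biological replicates. Control plants (CK) grew with days of 23 °C and nights of 18 °C. For prolonged warming (PW), plants aged 23 days after sowing were shifted to days of 28 °C and nights of 23 °C, and stayed there for 7 days. For heat shock (HS), plants received 38 °C for 6 h. No mutation or transgene is named in the labels, and leaves of every treatment were harvested at 30 days after sowing, so the treatments differed in duration as well as in temperature.

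The unfolded protein response is the programme by which a cell raises its folding capacity when unfolded proteins build up in the ER. In Arabidopsis it has a pair of signalling arms. In one, the membrane kinase and ribonuclease IRE1 cuts the mRNA of the transcription factor bZIP60, whose spliced form enters the nucleus. In the other, the membrane-bound transcription factor bZIP28 leaves the ER when the chaperone BiP releases it, and is freed by proteases in the Golgi. Both factors act on promoters of chaperone genes, through short motifs named ERSE (ER stress response element) and UPRE (unfolded protein response element).

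The motifs are shown first because the factors of this response are known to act through them. In the RefSeq TAIR10.1 genome, 250 bases before each annotated gene start were searched on both strands. ERSE was spelled CCAAT, 10 bases of any kind, then CACG, and it was present in 189 of 27443 protein-coding genes (0.689%). The UPRE core TGACGTG was present in 2.9% of them. ERSE-II (ATTGG, 1 base of any kind, CCACG) was present in 0.0619%, and a heat shock element of 3 units (GAA, 2 bases, TTC, 2 bases, GAA, or the same with TTC first, written HSE) in 0.386%. Of the 10 genes, BIP3 was the only one with any of the 4 motifs in this window, with 2 copies of ERSE. In RefSeq the annotated start of BIP1, BIP2, CNX1 and ERDJ3A lies 284, 213, 258 and 292 bases before the start codon, so a second window of 500 bases before the start codon was searched after the first had been seen. It held ERSE-II overlapping the UPRE core in BIP1 and BIP2, the same 2 copies of ERSE in BIP3, ERSE overlapping the UPRE core in CNX1, and HSE in ERDJ3A. Among all 27443 genes, this second window held ERSE in 1.07%, ERSE-II in 0.0984%, the UPRE core in 4.32% and HSE in 1.2%. The sites are printed 5′ to 3′ on the strand of the gene, with the fixed letters of each motif in capitals; ATTGG and CGTG are CCAAT and CACG read on the other strand, and CACGTCA is the UPRE core read on the other strand.
BIP1, ERSE-II and UPRE core, chr5:10543425-10543446, minus strand, 5′ UTR exon: gataATTGGtCCACGTCAtctc
BIP2, ERSE-II and UPRE core, chr5:16810656-16810677, minus strand, 5′ UTR exon: gataATTGGtCCACGTCAtctc
BIP3, distal ERSE, chr1:2932002-2932028, minus strand, upstream of the gene: gtcaCGTGtctgcttgtgATTGGgtac
BIP3, proximal ERSE, chr1:2931924-2931950, minus strand, upstream of the gene: cttaCGTGtcaagaagtgATTGGagag
CNX1, UPRE core and ERSE, chr5:24829857-24829886, minus strand, 5′ UTR exon: tgaaTGACGTGgcctgttatgATTGGttag
ERDJ3A, HSE, chr3:2737410-2737430, plus strand, intron before the start codon: gtcaTTCgaGAAatTTCcttt
The stretch printed for BIP1 was the same, base for base, as that printed for BIP2. A match of letters is a description and was not tested for binding.

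The libraries held 13772506 to 17768334 counts in CK, 11966328 to 12781806 in PW and 11660970 to 13734801 in HS. Levels are given as CPM, counts scaled to a common library total after TMM scaling, which corrects for differences in composition. The tests covered the 18952 genes that reached 10 counts in 3 or more libraries, among them all 10 of the genes described here. A gene passed when edgeR's quasi-likelihood test gave an adjusted p under 0.05 over all tested genes. HS replicate 3 stood apart from the other HS libraries (Pearson r of 0.912 with each, against 0.987 between those 2), and PW replicate 1 stood apart in several genes below. Markers of leaf cells were abundant in every library (473597 to 992302 counts over 6 genes), and 4 root markers held 0 to 1 counts in all. The 6 flower and seed markers summed to 1.44 to 21.7 CPM over the CK libraries, 3.08 to 21.4 over PW and 1.57 to 3.35 over HS, with the highest values in CK replicate 1 and PW replicate 1; their part in the results was not tested. In both of these libraries the seed markers CRA1 and OLEO1 had 0 counts. Of 6 genes checked for the heat response, 5 rose in HS and 3 in PW (all tested genes, 21.2% and 16.4%). In PW, HSP70-4 rose 3.44-fold and HSP90.1 2.01-fold (adjusted p of 0.000296 and 0.00191 by edgeR). The other was the small heat shock protein HSP17.4, with 7, 4 and 16 counts in PW. HSP17.4 reached 0 to 0.0925 CPM under control, 0.385 to 1.65 under warming and 445 to 579 under heat shock. The heat stress factor HSFA2 did not pass in HS (0.22 on the log2 scale).

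In HS vs CK, ERDJ3A and SDF2 rose and BIP3 fell, and the other 7 did not pass. For comparison, 21.2% of all tested genes rose and 18% fell in HS. BIP3 reached 10 counts only in CK libraries, so it entered the tests only through the group where it is high. It is part of the counts and medians of this paragraph, and its falls in HS and PW are no support for a change of the 10 genes. In PW vs CK 0 genes rose (0 also at an unadjusted p under 0.05 and by DESeq2), and BIP1, BIP2, BIP3, bZIP60 and IRE1A fell, where 16.4% of all tested genes rose and 14.6% fell. In PW vs HS, the direct test of the difference between the treatments, BIP1, BIP2, ERDJ3A, SDF2, CNX1 and bZIP28 were lower in PW and BIP3 was higher, where 14.2% of all tested genes were lower and 12.4% higher. With a change of at least 2-fold as well, 2 of the 10 rose and 1 fell in HS (all genes, 11.3% and 10.5%), 0 rose and 3 fell in PW (8.82% and 7.6%), and 1 was higher and 5 lower in PW vs HS (6.92% and 7.57%). Every HS library was above every CK library for 6 of the 10 genes (29.7% of all genes) and below for 2 (28.2%). Every PW library was above every CK library for 0 of them (25.3%) and below for 7 (27.9%), and above every HS library for 1 (17.3%) and below for 7 (21.1%). On the log2 scale the median change of the 10 genes was 0.27 for HS, -0.67 for PW (both against CK) and -0.95 for PW against HS, and that of all tested genes was 0.03, -0.04 and -0.02. The comparisons share libraries, CK in the first pair, so their values are set side by side and no agreement between them is read. Scaling by library size alone, without TMM, moved the median of all genes to -0.15 for HS, -0.45 for PW and -0.26 between them, and the share of calls that were higher from 54% to 41.3%, from 52.9% to 20.8% and from 46.7% to 24.8%. In bulk leaf RNA, fewer cells of a type and less RNA per cell cannot be told apart.

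**Figure D1:**
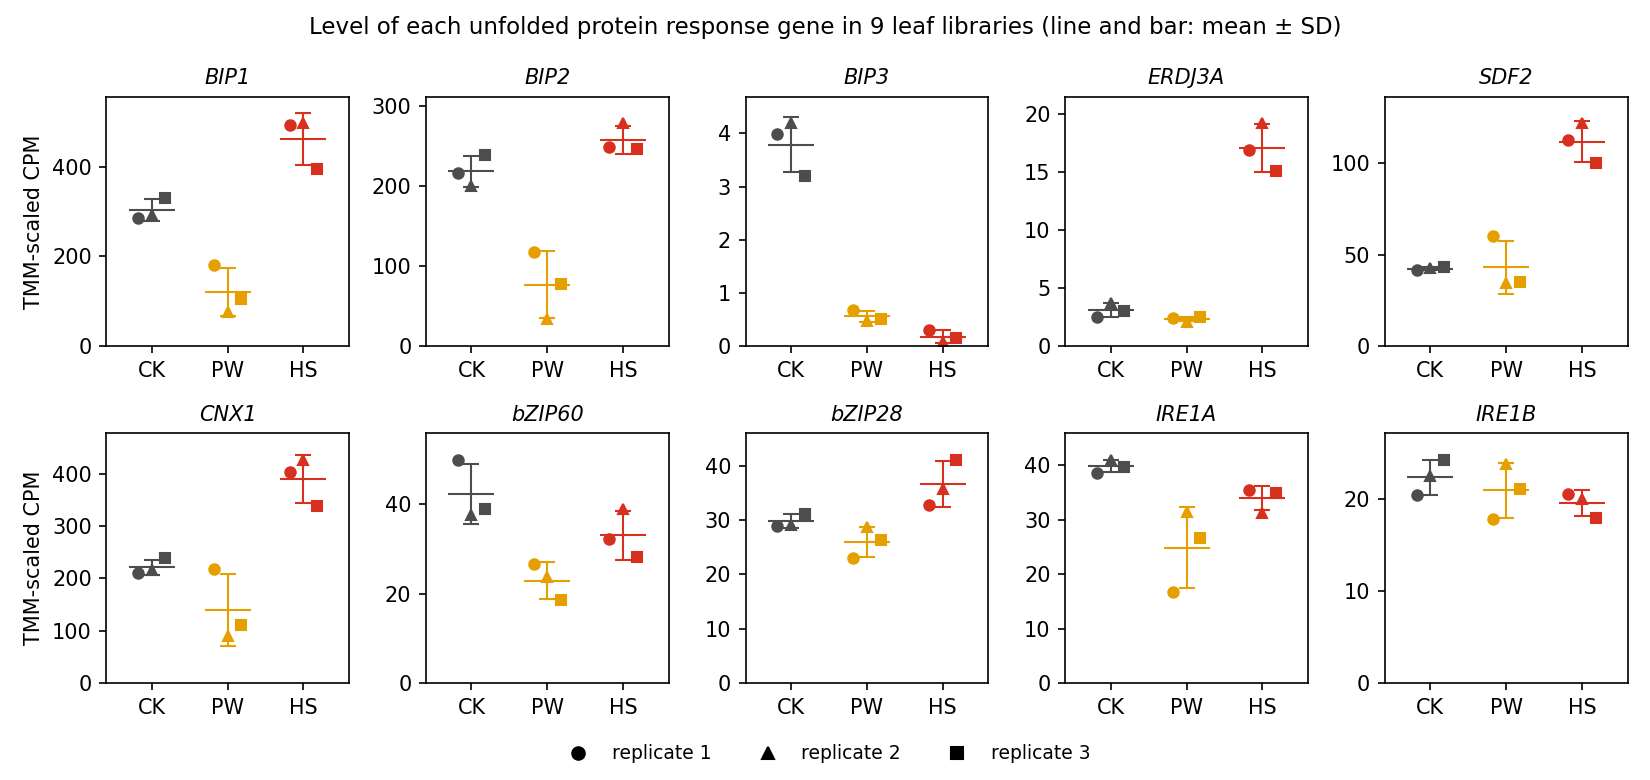
TMM-scaled CPM (y axis, starting at 0) of each of the 10 genes in the 3 libraries of CK, PW and HS; symbols mark the replicate number, and the line and bar are the mean ± SD (n = 3). BIP1, BIP2 and BIP3 were lower in every PW library than in every CK library, whereas ERDJ3A and SDF2 were highest in the 3 HS libraries. BIP3 reached 10 counts only in CK libraries.

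BiP is the Hsp70 chaperone of the ER lumen, which binds unfolded proteins and also holds the sensors of the response inactive. BIP1 (AT5G28540, chr5:10540123-10543558, minus strand, 6 exons) stood at 286, 293 and 331 CPM in CK, at 182, 77.2 and 105 CPM in PW, and at 492, 497 and 394 CPM in HS. The 3 groups of libraries did not overlap, with PW lowest and HS highest. BIP1 was 2.5-fold lower in PW than in CK (log2 fold change of -1.32, SE 0.292, adjusted p of 0.00914 by edgeR) and 3.8-fold lower than in HS (-1.93, SE 0.297, adjusted p of 0.00207). In HS vs CK its log2 fold change of 0.60 (95% interval -0.04 to 1.25) did not pass (adjusted p of 0.122 by edgeR). That call turned on the PW libraries, which set part of the shared spread: without PW replicate 1 the adjusted p was 0.0264, and with CK and HS alone in the fit it was 0.0308.

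BIP2 (AT5G42020, chr5:16807342-16810693, minus strand) encodes a second BiP, whose coding sequence is 95.8% identical to that of BIP1. BIP2 stood at 216, 200 and 238 CPM in CK, at 117, 34.1 and 77.8 CPM in PW, and at 248, 278 and 246 CPM in HS. Again the groups did not overlap, but HS lay close above CK. BIP2 was 2.85-fold lower in PW than in CK (log2 fold change of -1.51, SE 0.364, adjusted p of 0.0133 by edgeR) and 3.36-fold lower than in HS (-1.75, adjusted p of 0.00851). HS and CK differed by 0.24 on the log2 scale (95% interval -0.56 to 1.04, adjusted p of 0.618 by edgeR). The longest run of identical bases shared by the transcripts of BIP1 and BIP2 is 323, and 8.7% of the stretches of 100 bases of BIP1 are found in BIP2, so the counting could have split or dropped reads of these genes. Summed into 1 feature, BIP1 and BIP2 changed by 0.46 on the log2 scale in HS (adjusted p of 0.262 by edgeR), by -1.399 in PW (0.0103), and differed by -1.86 between PW and HS (0.00347).

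BIP3 (AT1G09080, chr1:2929217-2931850, minus strand) encodes the BiP known for low levels in unstressed tissue and strong induction by ER stress. Its coding sequence is 70.36% identical to that of BIP1, and no stretch of 100 bases is shared. BIP3 was counted 86, 73 and 50 times in CK, 8, 5 and 5 times in PW, and 4, 1 and 2 times in HS. The counts correspond to 3.98, 4.19 and 3.2 CPM in CK, 0.683, 0.482 and 0.515 CPM in PW, and 0.31, 0.0825 and 0.149 CPM in HS, so the order of BIP3 was CK, PW, HS with no overlap. The pooled CPM ratio of CK to HS was 21 (95% interval 10 to 52.9, counting error only) and that of CK to PW was 6.75 (4.17 to 11.6). BIP3 passed as lower in HS (log2 fold change of -4.32, SE 0.459, adjusted p of 0.00027 by edgeR) and in PW (-2.73, SE 0.408, adjusted p of 0.00159). BIP3 entered the test only through CK, the only group with at least 10 counts in its libraries. Without any 1 CK library it was not tested, so its falls are those of a gene tested only because it was high in CK. PW was higher than HS by 1.58 on the log2 scale (adjusted p of 0.0443 by edgeR), which rests on 18 against 7 counts and did not pass by DESeq2 (0.0692) or without any 1 PW library (0.0597 to 0.111).

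**Figure D2:**
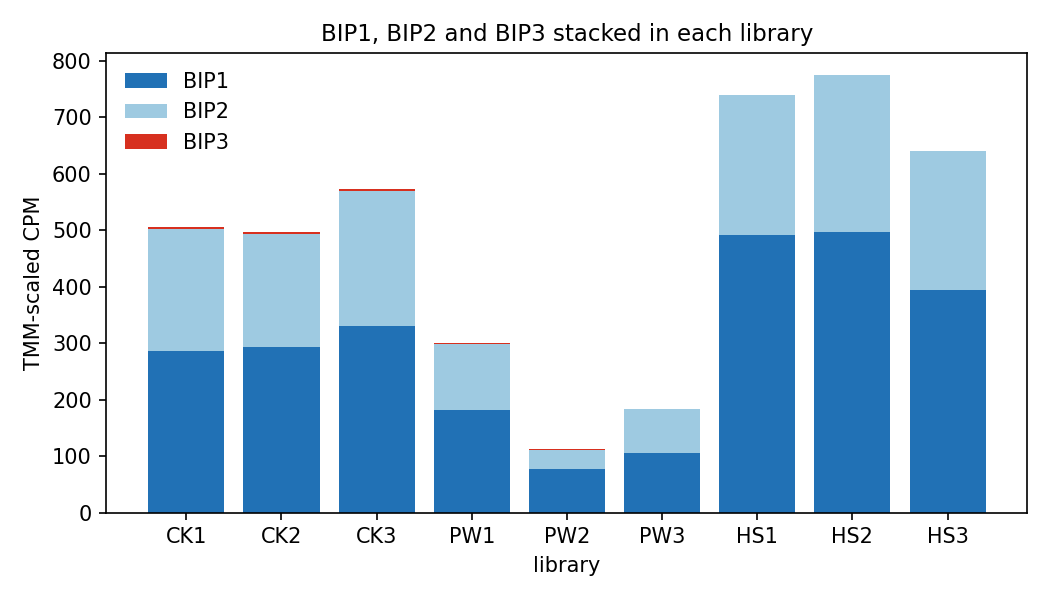
CPM of BIP1, BIP2 and BIP3 stacked for each of the 9 libraries (y axis from 0). The stacks are lowest in the 3 PW libraries and highest in the 3 HS libraries, and BIP3 is too small a part to be seen in most of them.

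The stacked levels of the 3 BiP genes summed to 525 ± 41.5 CPM under control, 198 ± 94.9 under warming and 718 ± 70 under heat shock (mean ± SD, n = 3). BIP1 made up 56.5%, 59% and 57.8% of the BiP counts in CK, and 66.4%, 64.1% and 61.6% in HS. The HS shares were all above the CK shares. Their exact binomial intervals, which hold counting error only, did not overlap (highest CK bound of 60%, lowest HS bound of 60.5%). Intervals within a treatment also failed to overlap, as for CK replicate 1 (55.6% to 57.4%) and CK replicate 2 (57.9% to 60%). The intervals therefore do not measure the spread between libraries. In PW the BIP1 share was 60.6%, 69.1% and 57.2%, which spanned the values of both other groups. BIP3 held 0.558% to 0.844% of the BiP counts in CK, 0.228% to 0.431% in PW and 0.0106% to 0.0419% in HS.

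The next members work with BiP or beside it in the ER. ERDJ3A (AT3G08970, chr3:2737297-2740549, plus strand, 7 exons) encodes a J-domain protein, a co-chaperone that stimulates the ATPase of Hsp70 proteins. ERDJ3A stood at 2.54, 3.73 and 3.01 CPM in CK, at 2.39, 2.12 and 2.47 CPM in PW, and at 16.9, 19.2 and 15.1 CPM in HS. The HS libraries were far above the others, while each PW library was just below the lowest CK library. ERDJ3A was 5.52-fold higher in HS than in CK (log2 fold change of 2.46, SE 0.199, adjusted p of 8.87e-05 by edgeR), the largest rise of the 10 genes, and 7.32-fold lower in PW than in HS (-2.87, adjusted p of 7.38e-05). In PW vs CK the log2 fold change of -0.41 did not pass (95% interval -0.88 to 0.06, adjusted p of 0.168 by edgeR). The gene overlaps AT3G08960 on the opposite strand, and the use of strand in the counting is not given in the sources used here. Reads in the stretch that the pair shares therefore cannot be told apart, and the length of that stretch was not measured.

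SDF2 (AT2G25110, chr2:10684118-10686347, plus strand) encodes a lumenal protein that works in a complex with the co-chaperone ERDJ3B and BiP. SDF2 stood at 41.6, 42.9 and 43.2 CPM in CK, at 60.1, 34.5 and 35 CPM in PW, and at 113, 122 and 100 CPM in HS. The CK libraries were close together, the HS libraries were all above them, and PW lay on both sides of CK. SDF2 was 2.62-fold higher in HS than in CK (log2 fold change of 1.39, SE 0.216, adjusted p of 0.00146 by edgeR) and 2.58-fold lower in PW than in HS (-1.37, adjusted p of 0.00236). In PW vs CK the log2 fold change was 0.02 (95% interval -0.46 to 0.51, adjusted p of 0.944 by edgeR), and without PW replicate 1, the library at 60.1 CPM, it was -0.29 (0.118).

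CNX1 (AT5G61790, chr5:24827063-24829900, minus strand) encodes calnexin, a membrane lectin that holds glycoproteins during folding. CNX1 stood at 210, 216 and 238 CPM in CK, at 218, 90 and 110 CPM in PW, and at 403, 426 and 338 CPM in HS. The HS libraries were all above the CK libraries, and PW replicate 1 lay within the range of CK while the other PW libraries lay below it. CNX1 was 2.79-fold lower in PW than in HS (log2 fold change of -1.48, SE 0.307, adjusted p of 0.00811 by edgeR). Its difference of 0.82 on the log2 scale between HS and CK did not pass (95% interval 0.13 to 1.498 before adjustment, adjusted p of 0.0586 by edgeR), but passed by DESeq2 (0.0241), with CK and HS alone in the fit (0.00886) and without PW replicate 1 (0.00484), PW replicate 2 (0.033) or HS replicate 3 (0.0391). In PW vs CK it was -0.67 (adjusted p of 0.125 by edgeR), and -1.15 without PW replicate 1 (0.00312).

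Among the sensors and transcription factors, log2 fold changes lay between -0.88 and 0.30. bZIP60, the factor whose mRNA is spliced by IRE1 (AT1G42990, chr1:16135723-16137463, minus strand), stood at 49.9, 37.7 and 38.9 CPM in CK, at 26.7, 23.6 and 18.5 CPM in PW, and at 32.3, 38.9 and 28.1 CPM in HS. PW was below both other groups, and HS overlapped CK. bZIP60 was 1.84-fold lower in PW than in CK (log2 fold change of -0.88, SE 0.188, adjusted p of 0.00801 by edgeR), whereas the difference of -0.35 between HS and CK did not pass (95% interval -0.77 to 0.07, adjusted p of 0.159 by edgeR). The difference of -0.53 between PW and HS did not pass (adjusted p of 0.0669 by edgeR; 0.0287 without HS replicate 3). Counts per gene do not show how much of the bZIP60 mRNA was spliced by IRE1, so the activity of that arm was not measured.

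bZIP28 (AT3G10800, chr3:3379168-3381621, plus strand), the factor that is freed by cleavage, stood at 29, 29.1 and 31.2 CPM in CK, at 23.1, 28.7 and 26.3 CPM in PW, and at 32.8, 35.8 and 41.1 CPM in HS. The 3 groups did not overlap, but the gaps were small. bZIP28 was 1.41-fold lower in PW than in HS (log2 fold change of -0.49, SE 0.133, adjusted p of 0.0247 by edgeR), a call that was lost with those 2 groups alone in the fit (0.0821) and without PW replicate 1 (0.0582), PW replicate 3 (0.0593) or HS replicate 2 (0.0619). Against CK the log2 fold change was 0.30 in HS (adjusted p of 0.101 by edgeR) and -0.19 in PW (0.296), and neither passed. The mRNA level does not show how much of the protein was cleaved.

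IRE1A (AT2G17520, chr2:7617151-7621129, plus strand) encodes one of the IRE1 sensors and stood at 38.7, 41 and 39.8 CPM in CK, at 16.7, 31.4 and 26.6 CPM in PW, and at 35.5, 31.3 and 35 CPM in HS. Both treatments were below CK in every library, with PW replicate 1 lowest. IRE1A was 1.6-fold lower in PW than in CK (log2 fold change of -0.68, SE 0.204, adjusted p of 0.0322 by edgeR). That call was lost without any 1 CK library (0.0734, 0.0873 and 0.082) and without PW replicate 3 (0.0641), while the log2 fold change stayed between -0.73 and -0.67 in those fits. HS differed from CK by -0.23 (95% interval -0.68 to 0.22, adjusted p of 0.387 by edgeR), and PW from HS by -0.45 (0.134; without PW replicate 2, -0.65 and 0.0442).

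IRE1B (AT5G24360, chr5:8316388-8319981, plus strand) stood at 20.5, 22.6 and 24.3 CPM in CK, at 17.9, 23.9 and 21.1 CPM in PW, and at 20.6, 20 and 18 CPM in HS, with the groups overlapping. On the log2 scale HS differed from CK by -0.20 (95% interval -0.52 to 0.13), PW from CK by -0.10 (-0.42 to 0.22) and PW from HS by 0.10 (-0.23 to 0.42), and none passed (adjusted p of 0.298, 0.631 and 0.651 by edgeR). IRE1B was the only 1 of the 10 genes with no call in any comparison. Its coding sequence is 52.8% identical to that of IRE1A, and no stretch of 100 bases is shared.

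**Figure D3:**
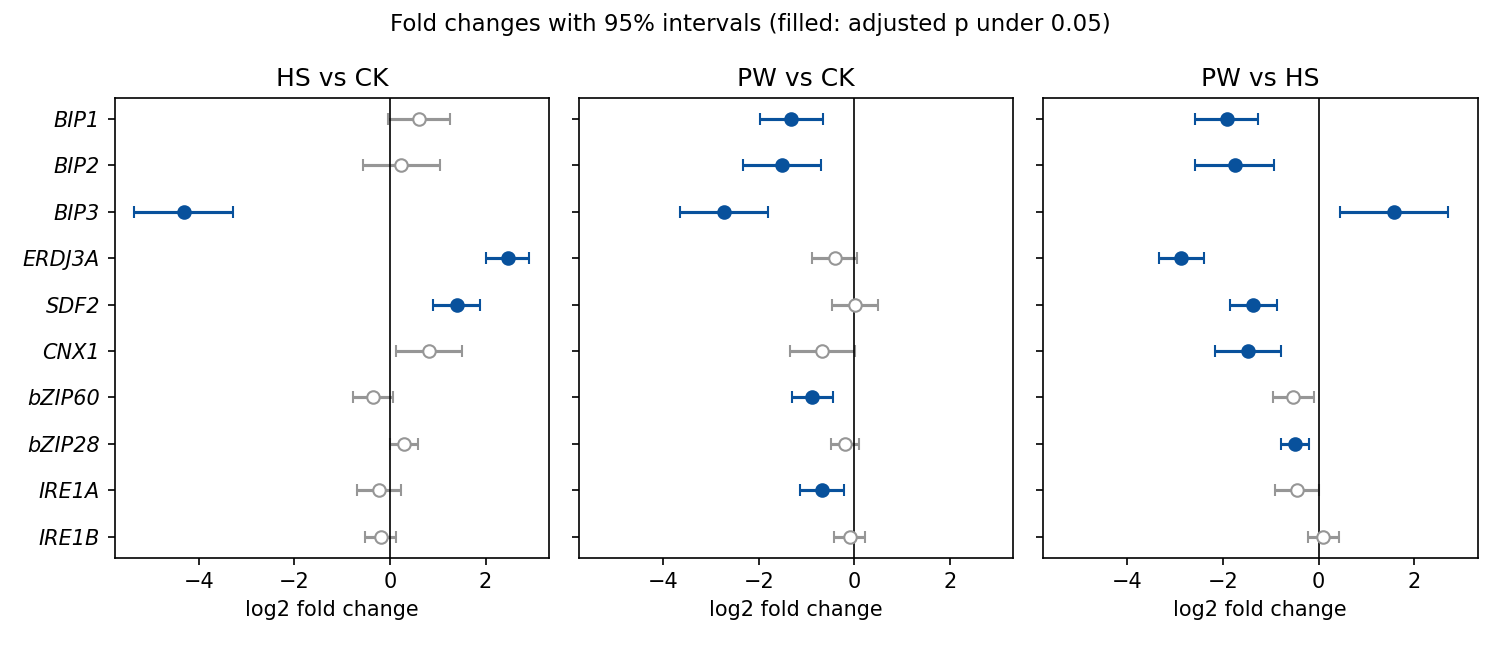
Log2 fold change (x axis) with its 95% interval before adjustment for each gene (y axis), 1 panel for each of the 3 comparisons; filled points had an adjusted p under 0.05. BIP3 is far below 0 in HS vs CK where ERDJ3A and SDF2 are above 0, and in PW vs CK no filled point is above 0. BIP3 was tested only through its counts in CK, where it is high.

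Per length of exons, the order of the genes in CK was BIP1 (107 ± 8.56 RPKM), CNX1 (101 ± 6.68), BIP2 (80 ± 7.16), bZIP60 (34.3 ± 5.46), SDF2 (28.8 ± 0.585), IRE1A (13.3 ± 0.377), bZIP28 (12.5 ± 0.529), IRE1B (7.13 ± 0.613), BIP3 (1.78 ± 0.246) and ERDJ3A (1.44 ± 0.278), as mean ± SD of 3 libraries. The ranges of mean ± SD overlapped between the neighbours BIP1 and CNX1, bZIP60 and SDF2, IRE1A and bZIP28, and BIP3 and ERDJ3A. In HS the order was CNX1 (178 ± 21 RPKM), BIP1 (163 ± 20.4), BIP2 (94.4 ± 6.56), SDF2 (75.6 ± 7.53), bZIP60 (26.9 ± 4.45), bZIP28 (15.4 ± 1.78), IRE1A (11.3 ± 0.763), ERDJ3A (7.95 ± 0.958), IRE1B (6.22 ± 0.437) and BIP3 (0.085 ± 0.0552), and only CNX1 and BIP1 overlapped. In PW the order was CNX1 (63.8 ± 31.6 RPKM), BIP1 (42.7 ± 19.1), SDF2 (29.3 ± 9.9), BIP2 (28 ± 15.3), bZIP60 (18.6 ± 3.33), bZIP28 (10.9 ± 1.19), IRE1A (8.31 ± 2.51), IRE1B (6.66 ± 0.959), ERDJ3A (1.08 ± 0.0863) and BIP3 (0.264 ± 0.0509), and the first 5 overlapped with their neighbours, as did bZIP28 with IRE1A and IRE1A with IRE1B.

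For BIP1, BIP2, CNX1 and SDF2, the PW libraries were the least alike within a treatment. From the lowest to the highest PW library, the level differed 3.43-fold for BIP2, 2.42-fold for CNX1, 2.35-fold for BIP1 and 1.74-fold for SDF2, against 1.19-fold, 1.13-fold, 1.16-fold and 1.04-fold in CK. PW replicate 1 was the highest and PW replicate 2 the lowest for all 4 of these genes, whereas PW replicate 1 was the lowest and PW replicate 2 the highest for IRE1A, bZIP28 and IRE1B. PW replicate 1 was also the PW library with the most flower and seed markers (21.4 CPM, against 3.08 in replicate 2 and 6.08 in replicate 3), whose part in this spread was not tested. Its counts came from the flower markers AG (31), AP3 (70), PI (92) and SEP3 (57). The seed markers CRA1 and OLEO1 had 0 counts in every PW library. In HS, replicate 3 was the lowest of the 3 for BIP1, BIP2, ERDJ3A, SDF2, CNX1, bZIP60 and IRE1B. Without PW replicate 1, 6 genes were lower in PW vs CK in place of 5, and 4 were higher in HS vs CK in place of 2. Without HS replicate 3, 3 were higher in HS vs CK. Over all 18952 genes of the main fit, 2772 were lower in PW vs CK and 4017 higher in HS vs CK. Without PW replicate 1 these were 2866 and 4291 of 18864 genes. Without HS replicate 3, 4665 of 18742 genes were higher in HS vs CK.

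**Figure D4:**
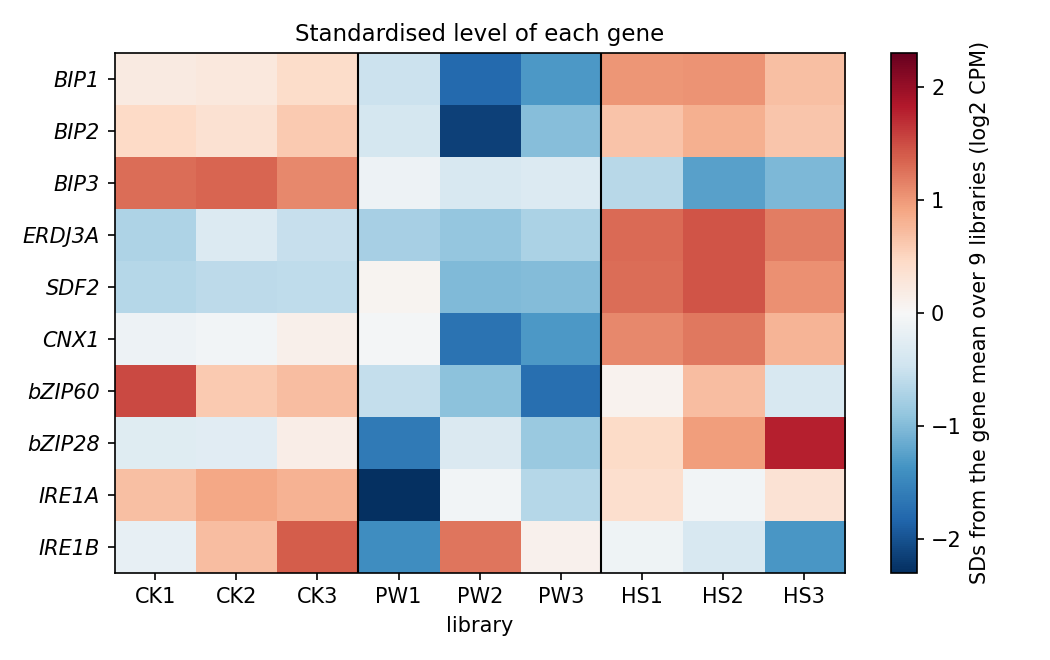
Colour gives how many SDs each gene's log2 CPM lies above (red) or below (blue) its own mean over the 9 libraries; columns are libraries and rows are genes. PW replicate 1 is nearer to CK than the other PW libraries for BIP1, BIP2 and CNX1, and the lowest of all 9 for IRE1A.

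Other genes of the ER were read from 5 lists with 65 genes, of which 63 were tested. In HS vs CK, 19 of the 63 rose and 19 fell, where 21.2% of all tested genes rose and 18% fell. In PW vs CK, 5 rose and 23 fell (all genes, 16.4% and 14.6%), and in PW vs HS, 3 were higher and 24 lower (12.4% and 14.2%). The counts of single lists below are of 9 to 15 genes each and are read against the same shares. The median log2 fold change of the 63 was -0.01, -0.39 and -0.26 in these comparisons. Of 11 other chaperones and co-chaperones, 5 rose and 3 fell in HS. The 3 that fell became 1 without CK replicate 2, CK replicate 3, HS replicate 1 or HS replicate 2, while the 5 that rose stayed between 4 and 7. Of 13 genes of ER-associated degradation, which returns misfolded proteins to the proteasome, 7 rose and 1 fell in HS (3 and 2 with library size alone). Of 15 tested genes of translocation and N-glycosylation, by which new proteins enter the ER and receive sugars, 1 rose and 10 fell in HS and 1 rose and 11 fell in PW, with medians of -0.70 and -0.74 on the log2 scale. Of 15 genes of disulfide formation, 4 rose and 4 fell in HS, while 6 fell in PW, where the highest log2 fold change was 0.16. The 4 that rose became 0 with library size alone and without CK replicate 1, CK replicate 2 or HS replicate 2, and 1 without CK replicate 3. Over all tested genes, 4017 rose in HS in the main fit, 2713 with library size alone and 2590 to 2826 without 1 of these replicates. The 6 that fell became 10 with library size alone, 3 without CK replicate 3 or PW replicate 3, and 9 without PW replicate 1. Over all tested genes, 2772 fell in PW in the main fit and 5808 with library size alone. Without CK replicate 3, PW replicate 3 or PW replicate 1, 1698, 2092 and 2866 fell. Of 9 tested genes of the signalling list, 2 rose and 1 fell in HS, and 1 rose and 3 fell in PW.

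**Figure D5:**
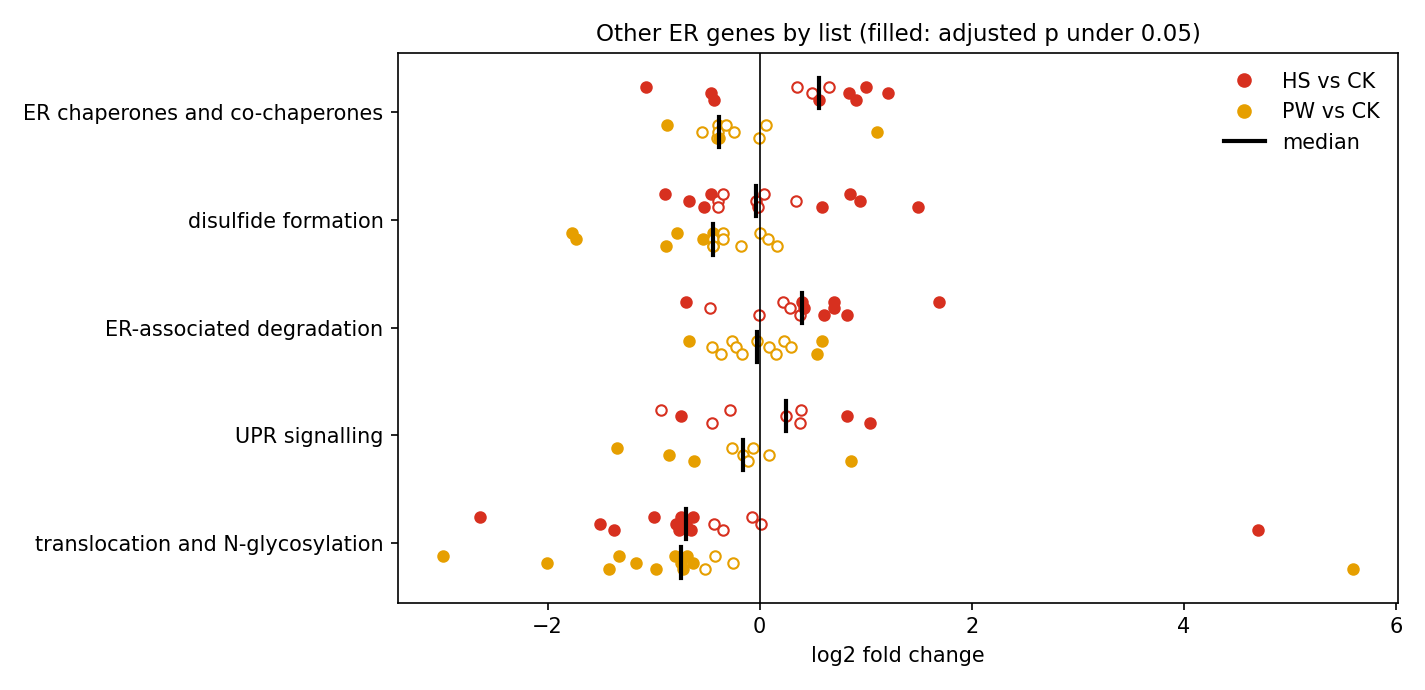
Log2 fold change (x axis) of each tested gene of the 5 other ER lists (y axis) in HS vs CK and PW vs CK; filled points had an adjusted p under 0.05, and black bars are medians. In HS vs CK the median of the degradation list is at 0.40 and that of the translocation and N-glycosylation list at -0.70.

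Among the chaperone partners, P58IPK, a lumenal J-domain co-chaperone of BiP, stood at 19.1, 20.4 and 20.8 CPM in CK, at 18.5, 10.4 and 17 CPM in PW, and at 47.5, 57.8 and 34.7 CPM in HS. It was 2.32-fold higher in HS than in CK (adjusted p of 0.00422 by edgeR). ERDJ3B, the partner of SDF2, rose 2-fold in HS (log2 fold change of 1.001, adjusted p of 0.00795 by edgeR), with 65.1 to 71.7 CPM in CK and 120 to 158 in HS. ERDJ2B, a J-domain protein of the translocation channel, rose 2.16-fold in PW (adjusted p of 0.000612 by edgeR) from 17.9 ± 0.0893 to 38.6 ± 5.58 CPM. The lectin chaperone CRT3, which is known for the folding of immune receptors, fell 2.1-fold in HS (adjusted p of 0.00428 by edgeR).

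In disulfide formation, PDIL2-2, a protein disulfide isomerase, stood at 14.3, 13.1 and 17.1 CPM in CK, at 8.12, 1.44 and 3.71 CPM in PW, and at 39.9, 47.6 and 37.8 CPM in HS. The groups did not overlap. PDIL2-2 passed as 2.82-fold higher in HS (log2 fold change of 1.49, SE 0.415, adjusted p of 0.0197 by edgeR) and as 3.31-fold lower in PW (-1.73, SE 0.446, adjusted p of 0.0178), and was 9.33-fold lower in PW than in HS (adjusted p of 0.00147). The call in HS was lost with library size alone (0.0563) and without any 1 CK library or HS replicate 2 (0.0544 to 0.0754), and that in PW without CK replicate 3 (0.0596) or PW replicate 3 (0.0664), while the log2 fold change stayed between 1.306 and 1.596 in HS and between -1.63 and -1.62 in PW in those fits. PDIL1-3, of the same family, fell 3.41-fold in PW (adjusted p of 0.000296 by edgeR), from 31.8 ± 1.98 to 9.32 ± 1.35 CPM. In ER-associated degradation, HRD1B, a ubiquitin ligase of the ER membrane, rose 3.23-fold in HS (log2 fold change of 1.69, SE 0.213, adjusted p of 0.000584 by edgeR), with 25.5 to 27.6 CPM in CK and 76.3 to 97.7 in HS, and did not pass in PW (0.379). In the signalling list, the membrane-bound transcription factor NAC089 rose 2.05-fold in HS (adjusted p of 0.00238 by edgeR), and NAC062, another membrane-bound factor, fell 2.54-fold in PW (adjusted p of 0.000595).

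In translocation and N-glycosylation, DAD1, a subunit of the oligosaccharyltransferase, fell 2.85-fold in HS and 4.03-fold in PW (adjusted p of 0.000795 and 0.000368 by edgeR), from 49.4 ± 1.9 CPM in CK to 17.3 ± 4.21 and 12.2 ± 2.71. SEC61G-3, a gamma subunit of the translocation channel, fell 2.59-fold in HS (adjusted p of 0.00185 by edgeR), and SEC61B, a beta subunit, fell 2.67-fold in PW (0.00369). SEC61B-3, another beta subunit, was counted 126 times in CK, 9 times in PW and 14 times in HS, a pooled CPM ratio of CK to PW of 8.14 (95% interval 4.16 to 18.2, counting error only). SEC61B-3 reached 10 counts only in CK libraries and so, like BIP3, entered the test only through the group where it is high; it is 1 of the 10 and 1 of the 11 genes of this list counted as lower, and its call in PW was lost without PW replicate 2 (0.0646) or PW replicate 3 (0.0631). The only gene of this list that rose was SEC31A, a coat protein of the vesicles that leave the ER and so not a protein of translocation itself. SEC31A was counted 0, 0 and 5 times in CK, 31, 78 and 48 times in PW, and 49, 32 and 22 times in HS, with adjusted p of 0.003 in PW and 0.00524 in HS by edgeR. SEC31A reached 10 counts only in PW and HS libraries, so it entered the test only through the groups where it is high, and its rise is no support for a change of the list.

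The 250 bases before the gene start held ERSE in 11 of the 65 other ER genes (16.9%) and the UPRE core in 11 of them, against 0.689% and 2.9% of all genes. P58IPK and HRD1B are printed for comparison with the BIP3 sites, fixed letters in capitals. Both rose in HS and so do not stand for all genes with ERSE. Among those not printed, UGGT fell in HS and in PW, and CRT1a, HSP90.7 and PDIL1-1 did not pass in HS.
P58IPK, distal ERSE, chr5:749977-750005, plus strand: tcataCGTGtttaattatcATTGGttact
P58IPK, proximal ERSE, chr5:750037-750065, plus strand: ttccaCGTGggtcataacgATTGGataga
HRD1B, ERSE, chr1:24163680-24163708, minus strand: atacaCGTGtcgttatatcATTGGttgcg
With BIP3, 12 genes held ERSE in this window. Of these, 4 rose and 3 fell in HS vs CK (all tested genes, 21.2% and 18%). In PW vs CK 0 rose and 4 fell (16.4% and 14.6%), and in PW vs HS 1 was higher and 9 were lower (12.4% and 14.2%). BIP3 and SEC61B-3 are among those that fell in both, and were tested only through CK, where they are high. Their falls are no support for a change of these genes. The others that fell were UGGT in HS, and UGGT and BI1 in PW. BIP3 was the 1 higher in PW vs HS. BIP3, P58IPK and SEC61B-3 each held 2 copies; P58IPK rose in HS, and BIP3 and SEC61B-3, the 2 genes tested only through their CK counts, fell. Of the 11 genes with the UPRE core, 5 rose and 1 fell in HS vs CK, and 1 rose and 3 fell in PW vs CK. In PW vs HS 0 were higher and 8 lower. SEC31A, tested only through PW and HS counts, is among the genes that rose in HS and is the 1 that rose in PW.

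The genes with the most similar profile over the 9 libraries were found by Pearson correlation of log2 CPM with the mean standardised profile of BIP1, BIP2, CNX1 and SDF2, given as a description since the libraries share 3 treatments and their depth. The leading genes that are not among the 10 were PDIL2-2 (r of 0.993), HSP90.7, the Hsp90 chaperone of the ER, annotated SHD (0.992), AT4G01990 (0.985), the disulfide isomerase PDIL2-1, annotated UNE5 (0.983), and YLS2 (0.983), and 3 of these 5 are on the ER lists. For bZIP60 they were CRK15, a receptor-like kinase (0.966), AT4G22770 (0.953), NPU (0.951), AT1G77770 (0.949) and AT3G50210 (0.948), of which 0 are on the ER lists.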

How the data were processed

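Leaf RNA of 3 CK, 3 PW and 3 HS samples was sequenced by the authors on an Illumina instrument, filtered, and mapped to TAIR10 with TopHat2; the submitters' processing notes also name CASAVA 1.8 and HTSeq 0.6.1. The deposited values are counts of reads per gene without normalization. The use of strand and the treatment of reads that match several genes are not given in the sources used here.

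Groups were taken from the labels, which give no sequencing batch. Counts of all 9 libraries were fitted together with edgeR 4.0.16 (R 4.3.3), TMM scaling and its quasi-likelihood test, with Benjamini-Hochberg adjustment over the 18952 genes that reached 10 counts in 3 or more libraries; a change of at least 2-fold was an added rule for naming. DESeq2 1.42.0 was an alternative, and the others were scaling by library size or upper quartile, other filters, the compared groups alone, organelle genes left out, the replicate number as a block, BIP1 and BIP2 summed, and leaving out each replicate. Script tests used simulated data. RPKM used exon lengths of RefSeq TAIR10.1. Coordinates and sequences are those of RefSeq TAIR10.1, since the count table holds none; coordinates are 1-based. Motif searches and identities used Python 3.11.15 and Biopython 1.88, and figures matplotlib 3.10.9.

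The study numbers replicates in each treatment. Deviations of same-numbered libraries correlated at 0.291, 0.31 and 0.136 between CK and PW, and at -0.319, 0.199 and -0.098 between CK and HS. Between PW and HS the same-numbered values were -0.497, 0.45 and 0.0847. Between CK and PW, libraries of unlike number correlated at -0.272 to -0.0345, below every same-numbered pair. In pairs with HS, libraries of unlike number reached 0.331 (CK replicate 1 with HS replicate 3) and 0.537 (PW replicate 1 with HS replicate 3). These values therefore do not establish that the numbers pair libraries across the 3 treatments. Whether they pair CK with PW was not tested.

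The 10 genes and the lists were chosen with earlier results of these data known. All 10 are described. Of each other list, genes were named that passed with at least a 2-fold change in HS vs CK or PW vs CK, up to the 4 largest per comparison, and the 5 genes most alike to each of 2 profiles. Genes named for the heat check are exceptions. Proteins were not analysed here.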

Additional observations from a re-analysis of the deposited data

How the results depend on the processing

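The 2 genes higher in HS vs CK became 4 with only the 2 groups compared, and 2 to 4 without 1 replicate, with 4 without PW replicate 1. Over all tested genes, 4017 of 18952 were higher in HS vs CK in the main fit. The number was 4123 of 18770 with only the 2 groups compared and 4291 of 18864 without PW replicate 1. Lower in HS vs CK were 3420 in the main fit and 3858 with library size alone. The 1 lower gene became 2 with library size alone and 0 with at least 10 counts in every library, where BIP3 was not tested, and 0 to 1 without 1 replicate, with 0 without any CK replicate for the same reason. The 5 genes lower in PW vs CK became 9 with library size alone and 3 with at least a 2-fold change, and 3 to 6 without 1 replicate, with 3 without any CK replicate, where BIP3 was not tested and IRE1A did not pass. Over all 18952 tested genes, 2772 were lower in PW vs CK in the main fit and 5808 with library size alone. The move to 9 therefore came with a shift of all genes. The 1 gene higher in PW vs HS, BIP3, became 0 by DESeq2, with library size alone, with no filter beyond 1 count, with at least 10 counts in every library, with only the 2 groups compared and with the replicate block, and 0 to 1 without 1 replicate. With the replicate block 5 genes were lower in PW vs CK, also with CK and PW libraries alone, a fit chosen after seeing the data; apart from BIP3 in PW vs HS (adjusted p of 0.0715 by edgeR), the block changed no call of the 10 genes.

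Changes of sign occurred only in values that did not pass. SDF2 in PW vs CK went from 0.02 to -0.36 with library size alone, -0.01292 with upper-quartile scaling, -0.01288 with at least 10 counts in every library, -0.01134 with the replicate block and -0.01652 with the block in CK and PW alone, and ranged from -0.2907 to 0.1631 without 1 replicate, with -0.0006262 without CK replicate 1. IRE1B in PW vs CK went from -0.10 to 0.00567 without PW replicate 1 (-0.2028 to 0.00567 without 1 replicate), and in PW vs HS from 0.10 to -0.143 with library size alone and to -0.006311 without PW replicate 2 (-0.006311 to 0.2026). Where not stated, the cause was not tested. With 3 libraries per treatment, calls near the threshold turn on single libraries, and BIP3 is limited by its 1 to 8 counts in HS and PW. For the named genes of the other lists, run under the same alternatives after seeing the data, the calls of PDIL2-2 against CK, and that of SEC61B-3 in PW, were the only ones lost in a fit that tested the gene.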
